A study of Bos indicus with 11 samples.

Results

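The genes described here are 10 that make, inactivate, carry or sense prostaglandins in the endometrium of beef cows: PTGS1, PTGS2, PTGES, PTGIS, AKR1B1, HPGD, SLCO2A1, PTGFR, PTGER2 and PTGER4. They were chosen by gene symbol, each symbol matched 1 row of the 24616 rows of the gene table, and all 10 were among the 15081 genes with enough reads to be tested. Endometrial biopsies came from healthy, multiparous, non-lactating Nelore cows (Bos indicus) that were inseminated at estrus, 1 biopsy per cow, taken on day 6 after insemination from the uterine horn opposite the corpus luteum. The cows were sorted afterwards, by the pregnancy diagnosis on day 30, into 6 pregnant (P) and 5 non-pregnant (NP) cows. Every cow of both groups had received injections of cloprostenol, an analogue of prostaglandin F2α, to synchronize estrus, so this treatment was shared by the groups. Cows had also been picked for similar plasma progesterone. Each biopsy is a mixed tissue in which fewer cells of a type and less RNA per cell cannot be told apart.

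Prostaglandins are lipids made from arachidonic acid: the cyclooxygenases PTGS1 and PTGS2 form an unstable intermediate, and a terminal synthase then decides which prostaglandin is made. In the uterus of ruminants, prostaglandin E2 acts through receptors that include PTGER2 and PTGER4 and is generally counted as supporting the corpus luteum, whereas prostaglandin F2α acts through PTGFR and causes its regression and the contraction of smooth muscle. The transporter SLCO2A1 carries prostaglandins across the cell membrane, and HPGD is the enzyme that inactivates them.

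Levels are given as normalized counts, that is, reads on a gene divided by the library's size factor. Libraries held between 9290949 and 13569085 reads on genes, and 1 read was worth between 0.784 and 1.14 normalized counts. Fold changes are differences of log2(normalized count + 1), NP minus P, tested with limma over all 15081 genes, and a gene was called at a Benjamini-Hochberg adjusted p-value under 0.1. No gene of the whole table was called in limma or in edgeR's quasi-likelihood test, whereas 1182 genes had an unadjusted limma p-value under 0.05 and DESeq2 called 201. Cow P617 and, less so, cow P1541 stood apart from the others. Their summed level of 7 smooth muscle marker genes, among them MYH11 and DES, was 424700 and 306820 normalized counts, against a median of 111050 in P cows and 32736 in NP cows, and their epithelial marker sums were the lowest of all, at 2750 and 10568. The next highest smooth muscle sum was that of an NP cow, NP638, at 175261. A supplementary list of the study also names the animal of P617 as non-pregnant. The sample label gives it as pregnant, so it was kept in the P group, and values without it are given where it matters.

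PTGES (ENSBTAG00000019453), the prostaglandin E synthase at the end of the E2 route, was the member that separated the groups. Its level in P cows ran from 10.6 to 22.6 normalized counts with a median of 17.2. The NP cows held 43.5 (NP238), 44.7 (NP2541), 40.8 (NP2810), 30.4 (NP638) and 38.7 (NP856). Every NP cow was therefore above every P cow, and the 2 groups did not overlap. Means were 17.2 ± 4.53 (SD, n = 6) in P and 39.6 ± 5.64 (SD, n = 5) in NP, a difference of 1.18 on the log2 scale (SE 0.262, 95% interval 0.61 to 1.76), or 2.27-fold. It ranked 38th of 15081 genes by limma's p-value, but its adjusted p = 0.264 did not pass the threshold. DESeq2 gave a difference of 1.22 with an adjusted p = 0.00298 and called it, and edgeR with TMM scaling gave 1.21 with an adjusted p = 0.323. The call thus differs between tools, while the size of the difference hardly moved. The study itself, which used DESeq2, had already reported PTGES as higher in NP cows. It measured PTGES again by qRT-PCR, in the same animals and in others of its experiment, with the higher level in NP.

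Read against the whole table, PTGES was the 1 member of 10 with an unadjusted limma p-value under 0.05, where 7.84% of all tested genes had one in either direction and 5.49% had one with the higher level in NP. It was also the 1 member of 10 whose groups did not overlap, a state shared by 1.09% of tested genes, and the 1 member called by DESeq2, which called 1.33% of them. Of the 10 members, 7 had the higher fitted level in NP and 3 in P, with a median difference of 0.30, against 7577 higher and 7504 lower of all 15081 genes and a median of 0.00. With 1 member past each of these limits, the counts say nothing about the members as a group.

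**Figure D1:**
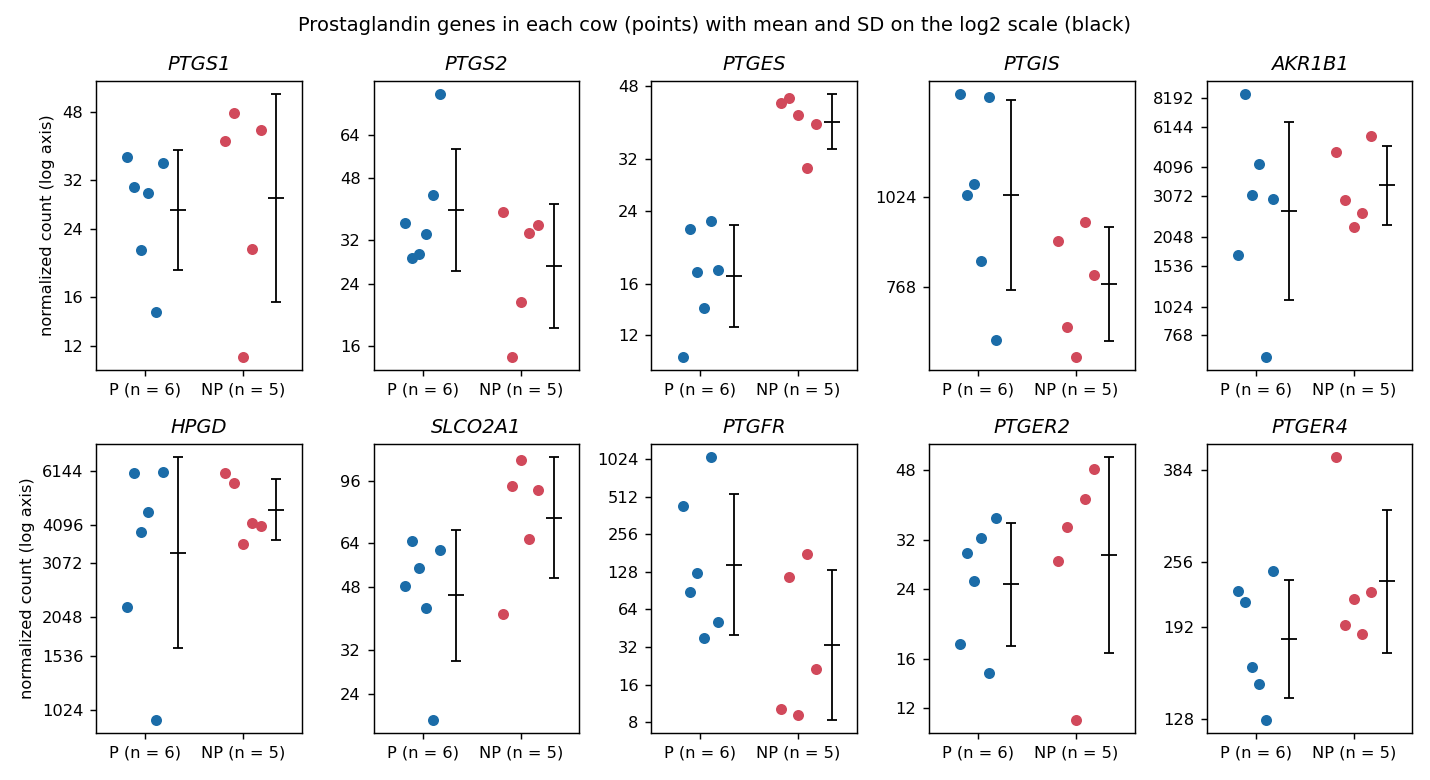
Normalized count of each of the 10 prostaglandin genes (log axis, 1 panel per gene, axes differ) in 6 pregnant (P, blue) and 5 non-pregnant (NP, red) cows. Each point is 1 cow, and black marks are the mean and SD of log2 counts. PTGES is the panel in which no NP cow lies at or below a P cow, whereas PTGFR spans from 9.17 to 1070 across cows.

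Counting error is wide for PTGES, because its libraries held only 11 to 57 reads on the gene. In the highest P cow, P617, 20 reads gave 22.6 normalized counts with an exact Poisson 95% interval of 13.8 to 34.9, and in the lowest NP cow, NP638, 30 reads gave 30.4 with an interval of 20.5 to 43.5. These intervals cover counting error only, and they overlap, so the gap at the border of the groups is not resolved for this pair of cows. Leaving out each cow in turn kept the PTGES difference between 1.06 and 1.27, and it was 1.27 without P617 and 1.14 without both P617 and P1541. Its most similar genes over the 11 cows, by Pearson's r of log2 levels, were PDGFRB (0.933), the platelet-derived growth factor receptor beta of perivascular and stromal cells, SOD3 (0.919), the extracellular superoxide dismutase, and CXCL3 (0.905), a neutrophil chemokine. These correlations carry the group difference itself and are given as a description.

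Markers of other cell types moved with the groups beside PTGES. All 10 endothelial markers, such as PECAM1 and CDH5, were higher in NP, 9 of them with an unadjusted p-value under 0.05, and their sum ran from 5147 to 15534 normalized counts in P and from 9353 to 17140 in NP. Of the 9 immune markers tested, all were higher in NP, 5 with an unadjusted p-value under 0.05, with sums of 449 to 985 in P and 782 to 1673 in NP, and the B cell marker MS4A1 was near 0 in every cow. All 7 smooth muscle markers were higher in P, 2 of them with an unadjusted p-value under 0.05. Of 10 epithelial markers, 8 were higher in NP, but the 1 with an unadjusted p-value under 0.05 was higher in P, and the median epithelial sum was 18732 in P and 17092 in NP. Of 10 stromal markers, 9 were higher in NP, 2 of them with an unadjusted p-value under 0.05. Of all 15081 genes tested, 828 had an unadjusted p-value under 0.05 with the higher level in NP and 354 with the higher level in P. None of these markers was called. With a marker score added to the fit as a covariate, the PTGES difference was 1.07 with the smooth muscle score, 1.19 with the epithelial score, 1.24 with the stromal score, 1.27 with the endothelial score and 1.07 with the immune score. Without a score it was 1.18, with an unadjusted limma p-value of 0.000755. With a score, the unadjusted limma p-value ran from 0.000981 (epithelial) to 0.0133 (immune). Whether tissue composition underlies the PTGES difference was not tested. Limma called PTGES only in the fit with the stromal score (adjusted p = 0.0314). That fit called 3439 genes of the table, and without P617 and P1541 the same fit called 0.

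The cyclooxygenases that feed all routes did not separate the groups. PTGS1 (ENSBTAG00000006716), the constitutive form, lay between 14.7 and 36.8 normalized counts in P cows with a median of 30.3. In NP cows it was 40.5 (NP238), 47.8 (NP2541), 11.2 (NP2810), 21.3 (NP638) and 43.0 (NP856), so 3 NP cows were above every P cow and 1 was below them all. The difference was 0.11 (SE 0.407, 95% interval -0.78 to 1.00, adjusted p = 0.961 in limma), and -0.06 without P617. PTGS2 (ENSBTAG00000014127), the inducible form, ran from 28.6 to 83.3 in P with a median of 34.5, and the NP cows held 38.4 (NP238), 14.9 (NP2541), 21.4 (NP2810), 33.5 (NP638) and 35.5 (NP856). The highest PTGS2 levels belonged to P904 and P617, both above every NP cow, 2 NP cows were below every P cow, and the remaining 7 cows were intermixed. Its difference of -0.51 (SE 0.352, 95% interval -1.28 to 0.26) had an adjusted p = 0.780 in limma. Both cyclooxygenases rested on few reads, 11 to 61 per cow for PTGS1 and 19 to 87 for PTGS2.

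PTGIS (ENSBTAG00000017537), the synthase of prostacyclin, was the 1 terminal synthase among the members with a higher mean in P. It ran from 648 to 1424 normalized counts in P with a median of 1049, and was 890 (NP238), 675 (NP2541), 613 (NP2810), 944 (NP638) and 798 (NP856) in NP. In 4 of the 6 P cows it was above the highest NP cow, and the remaining P cows, P2396 and P904, lay within the NP range. Means of 1069 ± 309 (SD, n = 6) and 784 ± 140 (SD, n = 5) differed by -0.41 (SE 0.210, 95% interval -0.87 to 0.05, adjusted p = 0.690 in limma), and by -0.32 without P617. With a score in the fit the difference was -0.12 (smooth muscle), -0.37 (epithelial) and -0.57 (stromal). It was 0.10 with the endothelial score and 0.0083 with the immune score, where its direction turned.

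AKR1B1 (ENSBTAG00000009902), an aldo-keto reductase that acts as a prostaglandin F synthase in bovine endometrium, was widely spread. Its lowest, median and highest levels in P were 619 (P617), 3056 and 8505 (P1631) normalized counts, a 13.7-fold range. The NP cows held 4794 (NP238), 2963 (NP2541), 2254 (NP2810), 2608 (NP638) and 5631 (NP856), a 2.50-fold range that lay wholly inside that of the P cows. Means of 3530 ± 2736 (SD, n = 6) in P and 3650 ± 1478 (SD, n = 5) in NP gave a log2 difference of 0.36 (SE 0.551, 95% interval -0.84 to 1.57, adjusted p = 0.895 in limma). Without P617 the difference was -0.06, so its direction rested on that cow. AKR1B1 has close relatives in the aldo-keto reductase family, and reads shared with them could be placed on either gene.

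HPGD (ENSBTAG00000025942), which inactivates E2 and F2α alike, followed the same layout. Its levels in P were 952 (P617) at the lowest, 4192 at the median and 6083 (P904) at the highest. In NP it was 6045 (NP238), 5585 (NP2541), 3542 (NP2810), 4142 (NP638) and 4066 (NP856), again within the P range. Means of 3944 ± 2061 (SD, n = 6) and 4676 ± 1077 (SD, n = 5) differed by 0.46 (SE 0.434, 95% interval -0.49 to 1.41, adjusted p = 0.833 in limma), and by 0.10 without P617. The lowest AKR1B1 and HPGD levels thus came from the same biopsy, the one with the lowest epithelial marker sum.

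SLCO2A1 (ENSBTAG00000001324), the prostaglandin transporter, had more reads in most NP cows. Its level in P ran from 20.3 (P617) to 65.1 with a median of 51.4, and the NP cows held 40.5 (NP238), 92.5 (NP2541), 110 (NP2810), 65.9 (NP638) and 90.3 (NP856). In 4 of 5 NP cows it was above every P cow, while NP238 was below 5 of the 6 P cows. Means of 48.6 ± 16.2 (SD, n = 6) and 79.9 ± 27.1 (SD, n = 5) differed by 0.71 (SE 0.346, 95% interval -0.04 to 1.47, adjusted p = 0.662 in limma). The interval reaches 0, and leaving out 1 cow at a time moved the difference between 0.49 and 0.94.

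PTGFR (ENSBTAG00000015902), the receptor of F2α, varied more between cows than any other member, from 9 to 947 reads. P cows ran from 37.6 (P2396) to 1070 (P617) normalized counts with a median of 107, and the next highest was P1541 at 436. The NP cows held 10.1 (NP238), 117 (NP2541), 9.17 (NP2810), 180 (NP638) and 21.5 (NP856). The highest 2 cows were both P and the lowest 3 were all NP, with the remaining 6 intermixed. Means were 301 ± 404 (SD, n = 6) in P and 67.4 ± 77.1 (SD, n = 5) in NP. The log2 difference of -2.08 was the largest of the 10 and the least precise (SE 1.02, 95% interval -4.30 to 0.15, adjusted p = 0.671 in limma). It was -1.50 without P617 and -0.97 without both P617 and P1541. With a score in the fit it was -0.13 (smooth muscle), -1.83 (epithelial), -3.03 (stromal), -1.05 (endothelial) and -0.23 (immune). DESeq2 gave -2.16 with an adjusted p = 0.379.

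The E2 receptors that raise cyclic AMP showed smaller differences. PTGER2 (ENSBTAG00000002163) lay between 14.7 and 36.4 normalized counts in P with a median of 27.4, and was 28.3 (NP238), 34.5 (NP2541), 11.2 (NP2810), 40.6 (NP638) and 48.4 (NP856) in NP. NP cows held both the highest and the lowest level, and the difference of 0.24 (SE 0.394, 95% interval -0.62 to 1.10) had an adjusted p = 0.899 in limma. Without P617 the PTGER2 difference was 0.10. PTGER4 (ENSBTAG00000014972) ran from 128 to 246 in P with a median of 188, and the NP cows held 408 (NP238), 194 (NP2541), 217 (NP2810), 187 (NP638) and 225 (NP856). A single NP cow, NP238, was above every P cow, and the other NP cows lay within the P range. The PTGER4 difference was 0.37 (SE 0.241, 95% interval -0.16 to 0.89, adjusted p = 0.772 in limma).

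**Figure D2:**
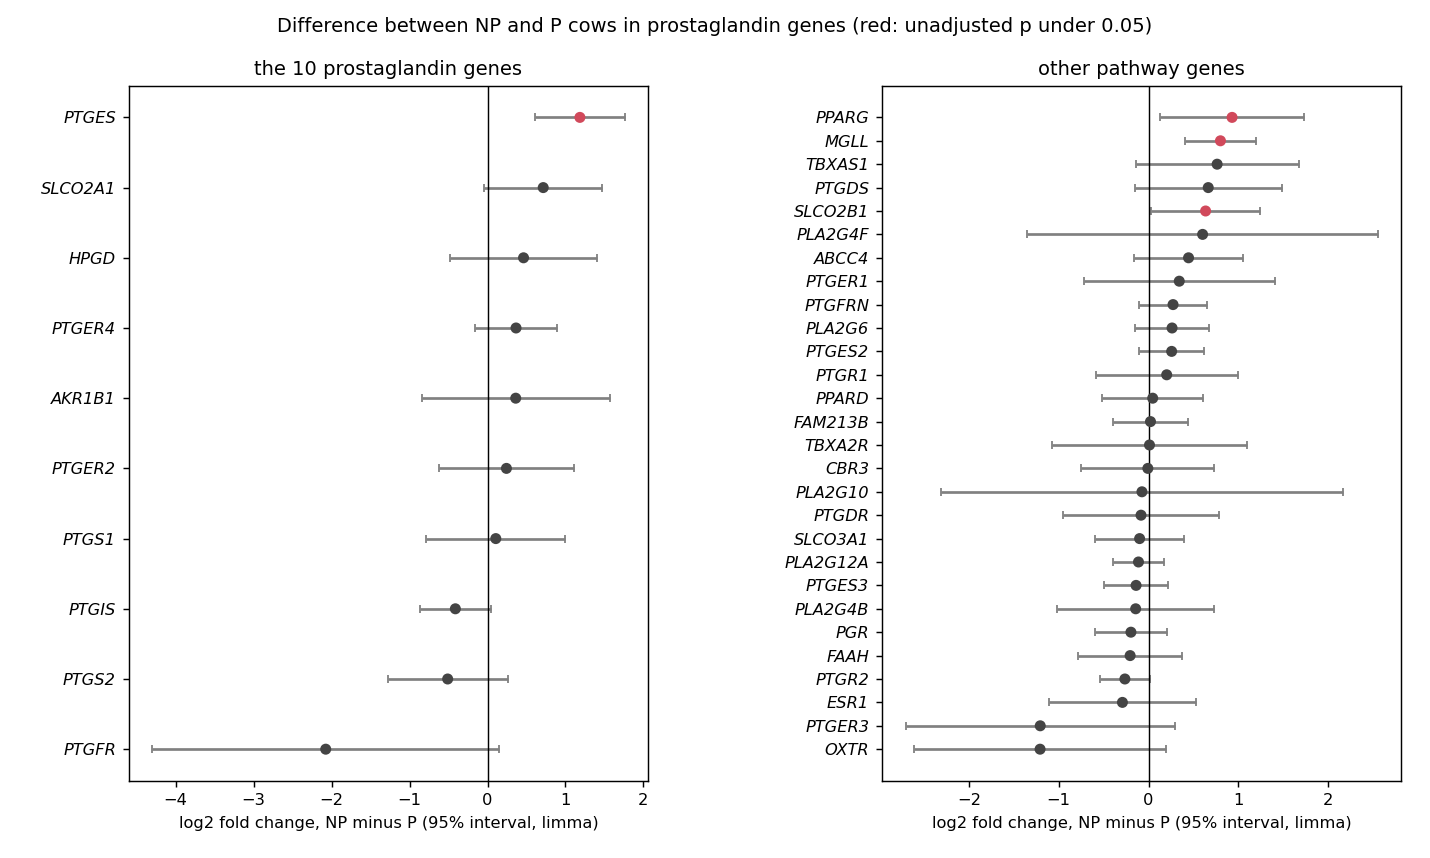
Log2 fold change between NP and P cows (x axis, NP minus P, limma on log2(normalized count + 1)) for the 10 members and the other tested genes of the prostaglandin list, with 95% intervals as bars. Genes in red have an unadjusted p-value under 0.05, which among the members is PTGES alone. The interval of PTGFR, from -4.30 to 0.15, is the widest of the members.

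The balance of the E2 and F2α routes was compared as the log2 ratio of an E2 gene to an F2α gene within each cow. Gene lengths cancel when such a ratio is compared between groups, so only the differences are read, not the ratios' own sign. For the synthases, normalized counts of PTGES per 1000 of AKR1B1 were 6.19 (P1541), 2.55 (P1631), 5.47 (P1753), 3.32 (P2396), 36.5 (P617) and 5.78 (P904) in P. They were 9.07 (NP238), 15.1 (NP2541), 18.1 (NP2810), 11.7 (NP638) and 6.88 (NP856) in NP. Every NP cow was above 5 of the 6 P cows, and P617 was above all the rest. The mean log2 ratio was -7.23 ± 1.34 (SD, n = 6) in P and -6.41 ± 0.56 (SD, n = 5) in NP, a difference of 0.82 with an exact two-sided permutation p = 0.232, and the same value after adjustment over the 3 ratios examined. Without P617 the groups did not overlap, and the difference was 1.33 with an exact permutation p = 0.00794, the smallest that 5 cows against 5 can give. It was 1.46 without P617 and P1541 (exact permutation p = 0.0159). The comparison of PTGES with AKR1B1 therefore rests on how 1 cow is treated. The other prostaglandin E synthases, PTGES2 and PTGES3, were not part of this ratio.

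For the receptors, PTGER2 and PTGER4 were each set against PTGFR. The other E2 receptors, PTGER1 and PTGER3, were not part of these ratios and had differences of 0.34 and -1.21. The ratio of PTGER4 to PTGFR was 0.518 (P1541), 2.41 (P1631), 1.28 (P1753), 3.98 (P2396), 0.119 (P617) and 4.85 (P904) in P. In NP it was 40.3 (NP238), 1.66 (NP2541), 23.7 (NP2810), 1.04 (NP638) and 10.5 (NP856). The highest 3 ratios were those of NP cows, the lowest 2 were those of P617 and P1541, and the remaining 6 cows were intermixed. The mean log2 ratio was 2.44 higher in NP (0.30 ± 2.02, SD, n = 6, in P and 2.75 ± 2.26, SD, n = 5, in NP), with an exact two-sided permutation p = 0.0974 and 0.146 after adjustment over the 3 ratios. The ratio of PTGER2 to PTGFR was 2.32 higher in NP with the same exact permutation p = 0.0974 and the same adjusted value. Both ratios share PTGFR, so they are not separate observations, and without P617 and P1541 the differences were 1.29 and 0.92.

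**Figure D3:**
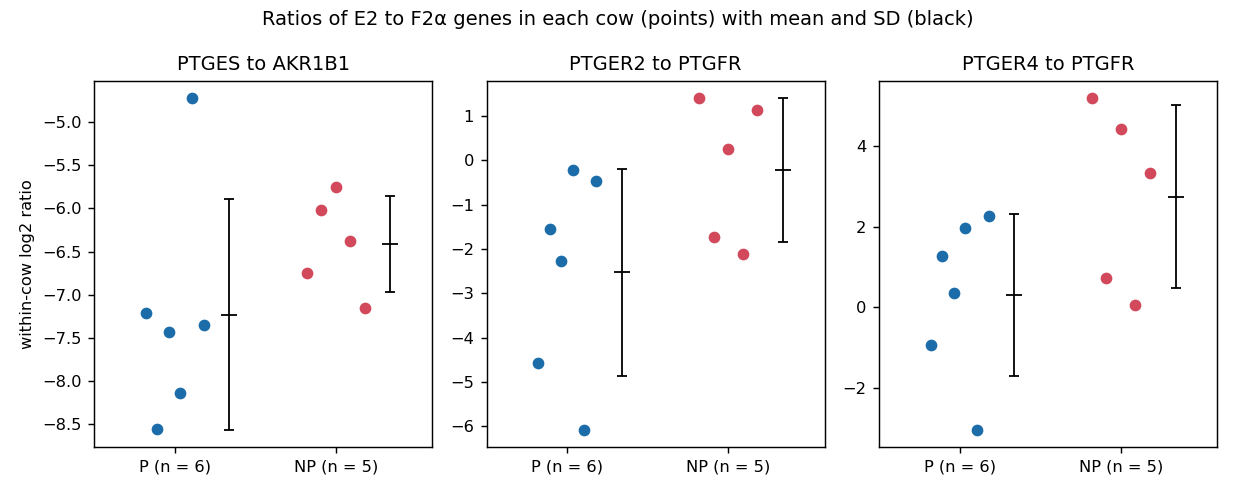
Log2 ratio of an E2 gene to an F2α gene within each cow (y axis, log2 units) for PTGES to AKR1B1, PTGER2 to PTGFR and PTGER4 to PTGFR, in 6 P and 5 NP cows. Each point is 1 cow, with the mean and SD of each group. In the first panel P617, at -4.72, lies above every other cow, while the remaining P cows lie below all NP cows. The nearest of these are P1541 at -7.21 and NP856 at -7.15.

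Relations between the members and cell type markers were examined over the 11 cows, with a score for each of 5 marker lists (the mean log2(normalized count + 1) of its genes), which makes 50 relations. PTGFR followed the smooth muscle score, with r = 0.952 and rho = 0.936 (permutation p = 2e-05 for r, adjusted permutation p = 0.001). Without P1541 and P617, the cows farthest from the median score, r was 0.893, and within the 6 P cows it was 0.911. PTGFR was lower in cows with a higher immune score (r = -0.726, rho = -0.782, adjusted permutation p = 0.0581 for r). It was also lower in those with a higher epithelial score (r = -0.648, rho = -0.527, adjusted permutation p = 0.0932 for r). The most similar genes to PTGFR were CCL11 (r = 0.981), the chemokine eotaxin, ACCN1 (0.970), an acid-sensing ion channel, and C14H8orf46 (0.969).

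SLCO2A1 followed the endothelial score, with r = 0.888 and rho = 0.855 (permutation p = 2e-04 for r, adjusted permutation p = 0.005), and r was 0.788 without P617 and NP2810. Its most similar genes were AQP1 (r = 0.955), a water channel of endothelium, BCAM (0.953), a laminin-binding adhesion molecule, and NOS3 (0.941), the endothelial nitric oxide synthase. With the endothelial score in the fit, the SLCO2A1 difference between groups went from 0.71 to -0.18. With the other scores it was 0.43 (smooth muscle), 0.64 (epithelial), 0.94 (stromal) and 0.53 (immune).

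AKR1B1 and HPGD followed the epithelial score, but largely through its extreme cows. For AKR1B1 r was 0.902 and rho 0.636 (permutation p = 8.9e-04 for r and 0.0406 for rho, adjusted permutation p = 0.0148 for r), and r was 0.517 without P1631 and P617. For HPGD r was 0.896 and rho 0.482 (permutation p = 0.00244 for r and 0.138 for rho, adjusted permutation p = 0.0244 for r), and r was 0.583 without the same cows. HPGD was also lower in cows with a higher smooth muscle score (r = -0.716, rho = -0.56, permutation p = 0.00753 for r, adjusted permutation p = 0.0471), with r at -0.14 without P1541 and P617. AKR1B1 was lower in cows with a higher stromal score (r = -0.707, rho = -0.782, adjusted permutation p = 0.0581 for r), with r at -0.58 without P1631 and P2396. The genes most similar to AKR1B1 were LIMK2 (r = 0.970), a kinase of the actin cytoskeleton, CYB5B (0.966), an outer mitochondrial membrane cytochrome, and C3H2orf54 (0.962).

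PTGIS was higher in cows with a higher smooth muscle score (r = 0.784, rho = 0.727, permutation p = 0.00436, adjusted permutation p = 0.0311, and r = 0.485 without P1541 and P617). It was lower in those with more endothelial marker signal (r = -0.820, rho = -0.800, permutation p = 0.00224, adjusted permutation p = 0.0244), where r was -0.69 without P617 and NP2810, and in those with a higher immune score (r = -0.789, rho = -0.855, permutation p = 0.0033, adjusted permutation p = 0.0275, and r = -0.65 without P1541 and NP2810). PTGES followed no score past an adjusted p-value of 0.05: its closest relations were with the immune score (r = 0.671, rho = 0.727, adjusted permutation p = 0.0845) and the endothelial score (r = 0.592, rho = 0.673, adjusted permutation p = 0.153). For PTGER4 the closest relation was with the smooth muscle score (r = -0.664, rho = -0.655, adjusted permutation p = 0.0845). No score gave an adjusted permutation p-value under 0.1 for PTGS1, PTGS2 or PTGER2. These relations are across cows of both groups, and which cells carried the reads was not tested.

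**Figure D4:**
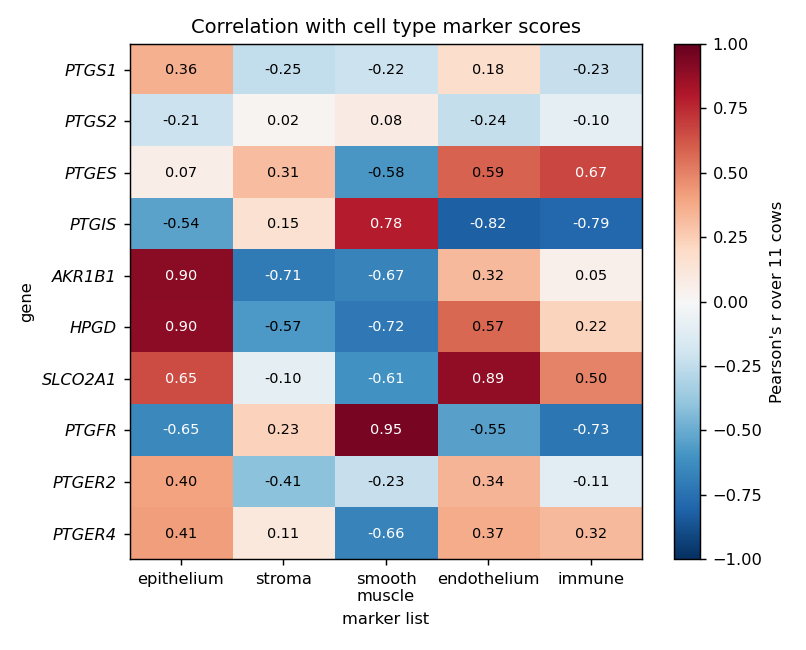
Pearson's r over 11 cows between the log2 level of each member (rows) and the score of each marker list (columns), with r printed in each cell. PTGFR with smooth muscle (0.952), AKR1B1 and HPGD with epithelium (0.902 and 0.896) and SLCO2A1 with endothelium (0.888) are the strongest positive cells.

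**Figure D5:**
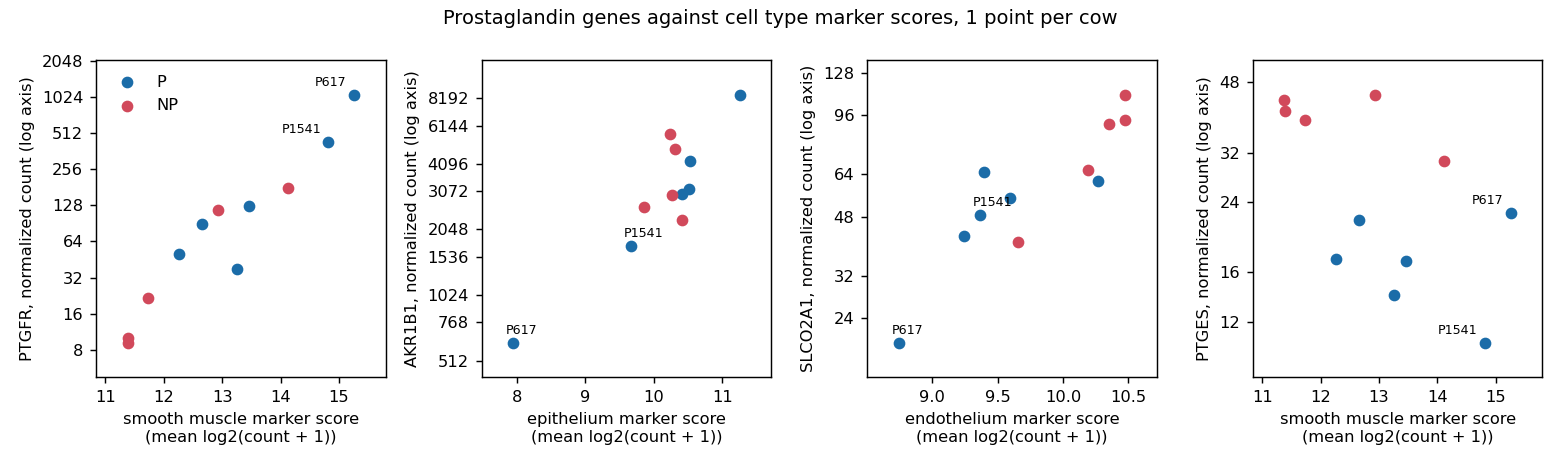
Normalized count (y axis, log scale) of PTGFR, AKR1B1, SLCO2A1 and PTGES against a marker score (x axis, mean log2(normalized count + 1)), 1 point per cow, P in blue and NP in red. In the PTGFR panel the cows of both groups lie along 1 line up to P617 at 1070 normalized counts. In the PTGES panel all 5 NP cows lie above all 6 P cows. The smooth muscle scores of P cows start at 12.3 (P904) and those of NP cows end at 14.1 (NP638). The groups therefore share only the middle of that axis.

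Beyond the 10 members, 41 symbols of the wider pathway were listed, of which 35 were in the table and 28 had enough reads to be tested. Of these, 15 were higher in NP and 13 in P, with a median difference of 0.02, and 3 had an unadjusted p-value under 0.05, all higher in NP, where 5.49% of all tested genes had one in that direction. The first of the 3 was MGLL, the lipase that releases arachidonic acid from 2-arachidonoylglycerol. MGLL ran from 114 to 182 normalized counts in P with a median of 133, and the NP cows held 300.4 (NP238), 195 (NP2541), 196 (NP2810), 299 (NP638) and 240 (NP856). The groups did not overlap, as in 1.09% of tested genes, and the difference was 0.80 (SE 0.179, 95% interval 0.41 to 1.19, adjusted p = 0.264 in limma). The other two were PPARG, a nuclear receptor that binds prostaglandin J metabolites, with a difference of 0.93 (adjusted p = 0.543 in limma), and SLCO2B1, an organic anion carrier related to SLCO2A1, with 0.63 (adjusted p = 0.608 in limma).

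By role, 3 of the 7 tested genes that release arachidonic acid were higher in NP, as were 4 of 6 other synthases, 3 of 5 genes of breakdown and transport and 5 of 7 other receptors. The other prostaglandin E synthases did not share the PTGES difference in size. PTGES2 had means of 328 ± 55.8 (SD, n = 6) and 392 ± 72.7 (SD, n = 5), a difference of 0.26 (95% interval -0.11 to 0.62, adjusted p = 0.770 in limma). PTGES3, the cytosolic form and co-chaperone, had means of 5508 ± 1018 (SD, n = 6) and 4997 ± 916 (SD, n = 5), a difference of -0.14 (95% interval -0.49 to 0.21, adjusted p = 0.865 in limma). The PTGES interval of 0.61 to 1.76 lies above that of PTGES3 and meets that of PTGES2, and the differences between these genes were not tested. CBR1, which can turn E2 into F2α, was not found under that symbol and so was not analysed here.

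PTGER3, the E2 receptor that lowers cyclic AMP, was spread like PTGFR rather than like PTGER4. It was highest in P617 (607 normalized counts) and P1541 (562), with 73.8 (NP238), 170 (NP2541), 34.7 (NP2810), 332 (NP638) and 54.8 (NP856) in the NP cows. The difference was -1.21 (SE 0.685, 95% interval -2.70 to 0.29, adjusted p = 0.738 in limma).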

How the data were processed

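Endometrial biopsies of 11 Nelore cows (6 P, 5 NP by the labels) were sequenced from polyA-selected libraries. Per the labels and the study's methods, the authors called bases with CASAVA 1.8.2, aligned reads to the masked UMD3.1 genome with Bowtie2 2.1.0, counted them with HTSeq 0.5.4p2 and normalized them with DESeq2 1.12.1. The annotation version and strand setting are not given in the sources used here, so reads of overlapping antisense genes cannot be told apart. The deposited signal values are counts divided by DESeq2 size factors, and each cow's values were whole multiples of 1 read for 100% of genes (within 0.001 of a read, and proportionally more above 1000 reads).

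Values were tested as log2(value + 1) with limma 3.58.1 in R 4.3.3, with an intensity trend, over 15081 genes with a mean of at least 5 (18919 had a read), and adjusted by Benjamini-Hochberg at 0.1. Recovered reads went into edgeR 4.0.16 and DESeq2 1.42.0 as alternatives, DESeq2 without independent filtering. The limma script was tested on simulated data. Ratios had exact permutation tests over 462 arrangements of the cows, and correlations 100000 permutations. Named genes were the 10 members, PTGES2, PTGES3, CBR1, PTGER3 and OXTR, pathway genes with an unadjusted p-value under 0.05 or no overlap, and the 3 genes most similar to each of 4 members. Members and lists were chosen with earlier results of these data known. Scores for endothelium, stroma and immune cells as covariates were added after seeing the data.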

Additional observations from a re-analysis of the deposited data

Results flagged for a closer look

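Of 26 groups of values examined for a cow far from the rest of her group, 2 were picked out by Dixon's test at the 95% level, which chance does in about 1 group of 20. The first was PTGER4 in the NP cows, where NP238 held 408 normalized counts and the next highest cow, NP856, held 225. The gap was 0.763 of the group's whole range, against a critical value of 0.710. The second was the log2 ratio of PTGES to AKR1B1 in the P cows, where P617 was at -4.72 and the next highest cow, P1541, at -7.21. That gap was 0.650 of the range, against a critical value of 0.625. The causes were not tested.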

How the results depend on the processing

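PTGES kept its direction and an unadjusted p-value under 0.05 in all 31 alternatives (1.02 to 1.36), with adjusted p-values from 0.00298 to 1.00. PTGS2, PTGFR and PTGER4 kept their direction in all 31, and both receptor ratios in all 17. PTGES, PTGS1, PTGS2 and PTGER2 had under 100 reads in every cow, which limits their precision. The causes of the changes that follow were not tested.

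The number of genes called, 0 in the reported fit, was 11 with array weights, 130 with the epithelial score, 3439 with the stromal score, 17 without P617 and P1541, 201 in DESeq2, and 0 to 171 with 1 cow left out (171 without P904). It was 0 in edgeR, in limma-voom, with other scalings, pseudocounts and filters, with the smooth muscle, endothelial and immune scores, without NP638 as well as P617 and P1541, and with the stromal score without P617 and P1541. Members with an unadjusted p-value under 0.05, 1 as reported, numbered 3 with the epithelial score, 6 with the stromal score (2 when P617 and P1541 were also left out), 2 in edgeR with TMM, 4 in DESeq2 and 1 to 3 with 1 cow left out. Of all tested genes, 12.4%, 32.4%, 2.86%, 7.63%, 9.75% and 5.66% to 10.3% had one in these fits, in that order. With the stromal score limma called PTGES (1.24), AKR1B1 (1.15), HPGD (1.03), PTGFR (-3.03), PTGIS (-0.57) and SLCO2A1 (0.94).

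Directions turned as follows. With the smooth muscle score, PTGS1 was -0.0427, AKR1B1 -0.41 and HPGD -0.14. With the endothelial score, PTGS1 was -0.10, PTGIS 0.10, AKR1B1 -0.15, HPGD -0.31, SLCO2A1 -0.18 and PTGER2 -0.10. PTGIS was 0.0083 with the immune score and 0.28 with the stromal score without P617 and P1541. AKR1B1 was -0.0305 with array weights. Without P617 and P1541, AKR1B1 was -0.32, HPGD -0.14 and PTGER2 -0.0562, and without NP638 too they were -0.22, -0.10 and -0.17. With 1 cow left out, PTGS1 ranged from -0.0696 to 0.43 and AKR1B1 from -0.0588 to 0.70. The log2 ratio of PTGES to AKR1B1, 0.82 as reported, ranged from 0.56 to 1.33 with 1 cow left out, passing 0.05 only without P617 (exact permutation p = 0.00794). It was 1.46 without P617 and P1541 and 1.45 without NP638 too.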

Other observations

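Receptors that act upstream of uterine prostaglandin synthesis were listed as well, and all 3 had the higher fitted level in P. OXTR, the oxytocin receptor through which luteolytic F2α pulses are evoked, was highest in P617 (346 normalized counts), with 57.8 to 130 in the other P cows. The NP cows held 86.0 (NP238), 17.3 (NP2541), 17.3 (NP2810), 193 (NP638) and 55.9 (NP856), so the groups overlapped. The difference was -1.21 (95% interval -2.61 to 0.20, adjusted p = 0.718 in limma). ESR1, the estrogen receptor alpha, differed by -0.29 (adjusted p = 0.876 in limma) and PGR, the progesterone receptor, by -0.20 (adjusted p = 0.833 in limma). PTGIR, the prostacyclin receptor, had too few reads to be tested, with means of 1.78 ± 2.05 (SD, n = 6) normalized counts in P and 6.84 ± 1.68 (SD, n = 5) in NP.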
